A study of Mus musculus with 4 samples.

Results

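Ackr1, Vwf, Selp, Sele, Icam1, Vcam1, Lrg1, Nr2f2, Ephb4 and Lcn2 are genes of venous endothelium and of leukocyte adhesion to the vessel wall. These 10 genes were taken by symbol from the 32285 features of the count tables, where each symbol occurs once. Their transcripts were measured by droplet single-cell RNA sequencing in the subdural meninges, the thin inner membranes of the brain, peeled from the cerebellum of young C57/BL6 mice. NdpKO; Neurod2-SmoA1+/- mice (NdpKO, libraries replicate 1 and replicate 2) lacked Ndp, which encodes norrin, a secreted ligand that drives beta-catenin signalling through Fzd4 in retinal and brain endothelium. NdpWT; Neurod2-SmoA1+/- mice (NdpWT, libraries replicate 1 and replicate 2) had the wild-type gene. Both groups carried 1 allele of the SmoA1 transgene, an activated form of Smoothened driven by the Neurod2 promoter in granule neurons, so no group had a cerebellum without the transgene. Each library was a pool of 5 cerebella, 3 litters supplied each run, and every NdpKO run was matched by litter with an NdpWT run. The sample fields give an age of postnatal days 6 to 8 and the protocol 7 to 9. Tissue was digested with Dispase II and spun through 22% Percoll. The comparison asks whether these genes differ in the meningeal vessels when norrin is missing.

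Leukocytes leave the blood mainly through small veins. There, selectins on the endothelium slow the cells, and immunoglobulin-type adhesion molecules then hold them through their integrins. Ackr1 is an atypical receptor that binds chemokines without G protein signalling and moves them across venular endothelium. Nr2f2 is the transcription factor that sets venous fate, and Ephb4 is the venous receptor of the arterial ligand Efnb2. Vwf, a clotting protein that captures platelets, and Selp are stored together in Weibel-Palade bodies, the secretory granules of endothelium. Sele, Icam1 and Vcam1 are induced by cytokines through NF-kB in many endothelia. Lrg1 is a secreted glycoprotein of venules and neutrophils that acts on TGF-beta signalling, and Lcn2 is an iron-siderophore binding protein stored in neutrophil granules.

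The 4 libraries held 114363848 to 125981161 UMIs (unique molecular identifiers, each standing for 1 captured transcript) in 12904 to 19134 barcodes, of which 5599 and 10676 cells from NdpKO mice and 9079 and 12561 cells from NdpWT mice were kept. NdpKO replicate 1 stood apart, with 44.1% of its barcodes passing the cell filter against 64.8% to 67.0% in the other 3 libraries, and a median of 14296 UMIs per cell against 7220 to 9464. Between 15 and 47 cell barcodes were shared by any pair of libraries. Ndp itself was at 0.411 and 0.470 CPM (UMIs per 1e+06 UMIs of the library) in NdpKO libraries and at 2.07 and 1.35 CPM in NdpWT libraries, from 40, 50, 200 and 138 UMIs. Which part of Ndp was deleted is not stated, so tags that remain in NdpKO libraries may lie outside it. Levels below are CPM of the UMIs summed over a library's cells of a class; intervals are exact 95% Poisson intervals and cover counting error only. Changes are log2 of NdpKO over NdpWT from edgeR's quasi-likelihood test on these sums, with the Benjamini-Hochberg adjusted p over all genes tested in the class, called below 0.05. With 2 libraries against 2 the smallest 2-sided exact permutation p is 0.333, so the fit across all genes was the test used.

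The region around the start of transcription is shown for 4 of the genes: Ackr1 and Ephb4, which carried the calls below, and Icam1 and Sele, whose promoters hold well-studied NF-kB sites. Each sequence runs from 250 bases before to 50 bases after the start given by RefSeq (GRCm38.p6), 5′ to 3′ on the gene's strand, and 8 of the 10 genes had an entry. Capitals mark letters matching GGNNNTTCC on either strand, which many NF-kB sites contain, or AGATAAG on either strand, a form of the GATA motif. Ackr1 lies at chr1:173333454-173333753 (minus strand), Ephb4 at chr5:137349859-137350158 (plus strand), Icam1 at chr9:21015690-21015989 (plus strand) and Sele at chr1:164047984-164048283 (plus strand).
Ackr1: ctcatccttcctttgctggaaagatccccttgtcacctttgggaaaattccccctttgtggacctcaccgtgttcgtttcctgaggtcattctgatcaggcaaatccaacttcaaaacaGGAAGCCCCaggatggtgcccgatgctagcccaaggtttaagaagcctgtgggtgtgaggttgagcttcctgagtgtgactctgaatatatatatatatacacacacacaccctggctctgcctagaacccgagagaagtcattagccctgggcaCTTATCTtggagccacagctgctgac
Ephb4: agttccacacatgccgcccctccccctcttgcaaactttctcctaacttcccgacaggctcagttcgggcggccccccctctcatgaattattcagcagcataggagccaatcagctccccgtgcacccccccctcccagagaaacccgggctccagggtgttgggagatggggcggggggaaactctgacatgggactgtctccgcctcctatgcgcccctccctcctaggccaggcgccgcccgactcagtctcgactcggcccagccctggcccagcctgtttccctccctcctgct
Icam1: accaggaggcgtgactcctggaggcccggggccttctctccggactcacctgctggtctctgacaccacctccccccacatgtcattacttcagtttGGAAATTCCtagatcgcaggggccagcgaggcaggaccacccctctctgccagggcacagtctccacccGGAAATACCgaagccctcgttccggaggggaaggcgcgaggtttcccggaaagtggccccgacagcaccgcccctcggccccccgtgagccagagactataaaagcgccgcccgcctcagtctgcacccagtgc
Sele: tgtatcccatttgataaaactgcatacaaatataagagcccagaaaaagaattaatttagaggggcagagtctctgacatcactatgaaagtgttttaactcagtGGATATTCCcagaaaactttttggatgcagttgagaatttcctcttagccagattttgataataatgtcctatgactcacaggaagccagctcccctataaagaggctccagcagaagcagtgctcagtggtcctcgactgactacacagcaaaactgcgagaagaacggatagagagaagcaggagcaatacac
The window of Icam1 held 2 matches to GGNNNTTCC, at −153 and −84 from the start, and that of Sele 1 at −145. Ackr1 held 1 match to it at −131 on the reverse strand and, at 25 bases after the start, the reverse complement of AGATAAG. The 2 motifs do not overlap in any of these windows. Among 32851 mouse promoters of the same length, 18.5% held GGNNNTTCC and 3.04% held AGATAAG, against 6 and 1 of the 8 genes with an entry. A match in letters is a description of the window and not evidence that a factor binds there.

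The endothelial class comprised 311 and 520 cells in NdpKO libraries and 272 and 1072 cells in NdpWT libraries, and its markers were present in each of them, with Cldn5 at 4050 and 4137 CPM in NdpKO and 3687 and 5229 CPM in NdpWT libraries. Cells were clustered without the 10 genes, so none of them defined a class or subtype. Arterial cells (86 and 131 NdpKO cells, 58 and 202 NdpWT cells) and non-arterial cells (89 and 202 NdpKO cells, 128 and 446 NdpWT cells) were compared separately, a grouping set after the clusters were seen. The non-arterial cells came from different clusters in the 2 genotypes. A cluster led by capillary markers held 4.49% and 7.92% of them in NdpKO libraries against 85.9% and 83.0% in NdpWT libraries. An unnamed cluster led by Pcdh17, Piezo2 and Plvap held 78.7% and 53.0% in NdpKO libraries against 5.47% and 4.71% in NdpWT libraries. A venous cluster held 16.9% and 39.1% in NdpKO libraries against 8.59% and 12.3% in NdpWT libraries. These shares are given for orientation, since the genes that define the clusters differ with genotype. As reported, the venous cluster held 15 and 79 NdpKO and 11 and 55 NdpWT cells. With genes centred within each library it held 17 and 84 NdpKO and 27 and 131 NdpWT cells. With the 10 genes kept for clustering it held 17 and 84 NdpKO and 14 and 79 NdpWT cells. At resolution 1 the matching cluster had too few venous markers to be named. Comparisons outside the venous cluster were run only on the clusters as reported.

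Of the 10 genes, 9 had enough UMIs to be tested in endothelial cells: 1 of them, Ackr1, fell in NdpKO and none rose. Over all 12657 genes tested, 2.22% were called, 0.869% higher and 1.35% lower. In non-arterial cells 8 were tested, Ackr1 fell and Ephb4 rose, beside 4.84% of 10045 genes called, 2.62% higher and 2.22% lower. In arterial cells 5 were tested and 0 called, beside 0.10% of 9966 genes called by edgeR (0.0201% higher and 0.0803% lower) and 3 genes by DESeq2. There, 462 genes had an unadjusted p below 0.05, 1 of the 10 among them (Vcam1). The genes called in endothelial cells numbered 118 without NdpWT replicate 1 and 611 without NdpKO replicate 2, and the called members 1 and 4. Non-arterial calls numbered 272 without NdpWT replicate 1, and called members ranged from 1 to 4.

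**Figure D1:**
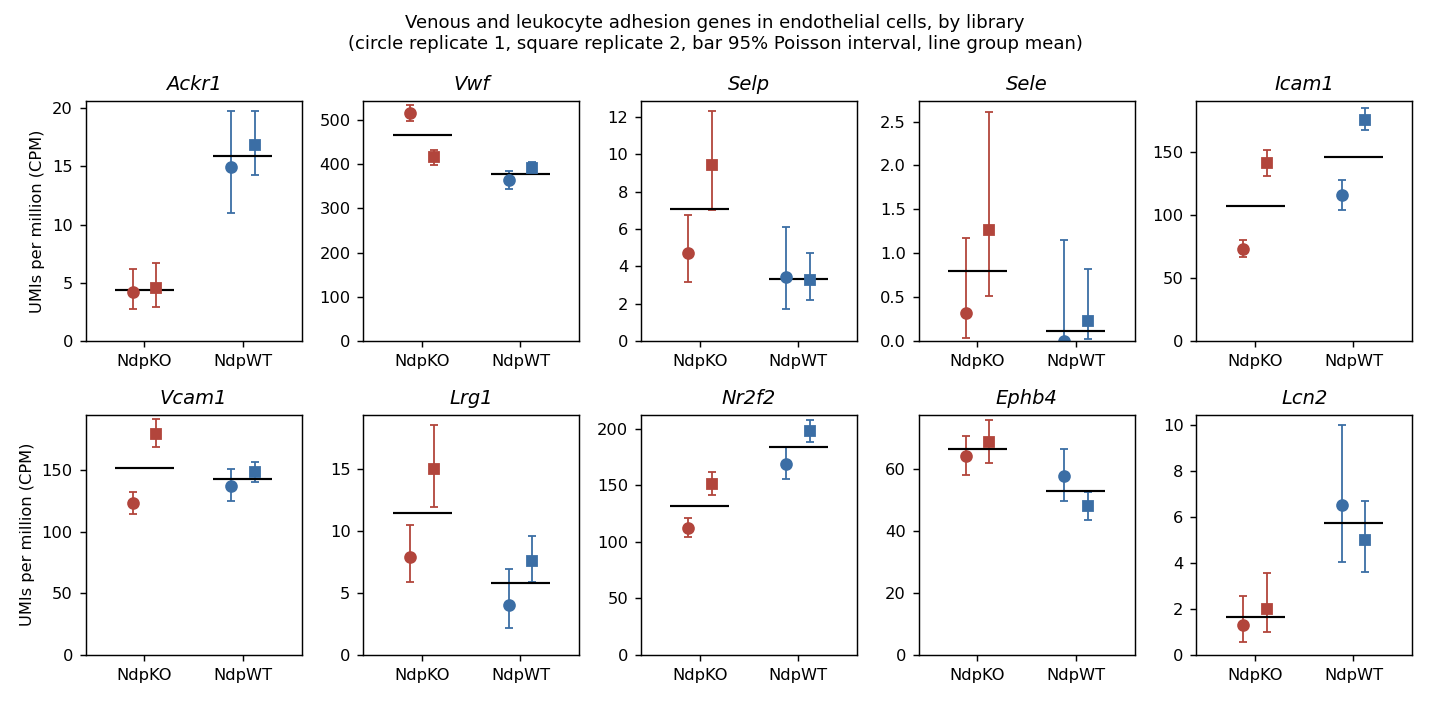
Level of each gene (CPM) in the summed endothelial cells of each library, with its 95% Poisson interval and the group mean as a line, NdpKO left of NdpWT. Ackr1, at 4.21 and 4.52 CPM in NdpKO and 14.9 and 16.8 CPM in NdpWT cells, and Lcn2 are lower in both NdpKO libraries, while Icam1 and Vcam1 overlap between genotypes.

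Ackr1 was the one gene of the 10 called in the endothelium as a whole, and it was lower in endothelial cells without norrin. Ackr1 (ENSMUSG00000037872, chromosome 1, 173331886 to 173333750, minus strand, GRCm38) was at 4.21 and 4.52 CPM in NdpKO endothelial cells and at 14.9 and 16.8 CPM in NdpWT endothelial cells, from 26, 25, 48 and 149 UMIs. Both NdpKO libraries lay below both NdpWT libraries, and the interval of no NdpKO library reached that of an NdpWT library. The change was −1.89 ± 0.27 (log2, SE), 3.71-fold lower, with an adjusted p of 0.00304 in edgeR's quasi-likelihood test and 0.00157 in DESeq2. It was called without each library in turn. In NdpKO replicate 1, 13 of the 26 UMIs came from 1 cell.

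In sums over cells, fewer expressing cells and fewer transcripts per cell cannot be told apart. The share of cells with an Ackr1 UMI was also counted, at equal depth. At so low a level this share cannot separate them either, since fewer transcripts per cell would also lower it. After each cell was thinned to 3000 UMIs (233 and 404 NdpKO cells and 207 and 791 NdpWT cells were deep enough), it was 0.858% and 0.990% in NdpKO libraries and 4.35% and 3.54% in NdpWT libraries. Without thinning it was 3.22% and 2.31% in NdpKO libraries and 8.82% and 6.72% in NdpWT libraries. Fibroblasts, which should lack the gene, had a thinned share of 0.335% and 0.0654% in NdpKO libraries and 0% and 0.0556% in NdpWT libraries, at median depths of 24744 and 14846 UMIs in NdpKO and 16755 and 11732 UMIs in NdpWT fibroblasts; endothelial medians were 15453 and 8760 UMIs in NdpKO and 8895 and 6886 UMIs in NdpWT cells. With 404 or fewer cells on the NdpKO side, the exact 95% binomial interval ran from 0.104% to 3.07% in replicate 1 and from 0.270% to 2.52% in replicate 2, and both overlapped those of the NdpWT libraries.

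Within the endothelium, Ackr1 was nearly absent from arterial cells. In the venous cluster it was at 24.5 and 18.9 CPM in NdpKO cells and at 45.4 and 71.2 CPM in NdpWT cells, with 7, 14, 5 and 30 UMIs, and was not tested there since replicate 1 of each genotype had few cells. In the proliferating cells, also not tested, it was at 11.3 and 4.63 CPM in NdpKO and 39.8 and 8.46 CPM in NdpWT libraries, which overlapped. Arterial cells had 1 and 0 UMIs in NdpKO libraries and 0 and 2 UMIs in NdpWT libraries, where the limit for 0 UMIs was 1.65 CPM in NdpKO replicate 2 and 3.81 CPM in NdpWT replicate 1. In non-arterial cells as a whole, levels were 5.41 and 6.77 CPM in NdpKO and 14.4 and 31.0 CPM in NdpWT libraries, and the groups did not overlap. The change was −1.94 ± 0.41 (edgeR adjusted p = 0.0200), but −1.21 with an adjusted p of 0.246 without NdpWT replicate 2. Outside the venous cluster, a comparison added after seeing the data, non-arterial cells held 2 and 0 UMIs in NdpKO libraries and 21 and 92 UMIs in NdpWT libraries. These cells were mostly of the unnamed cluster in NdpKO and of the capillary cluster in NdpWT libraries. Of the NdpWT UMIs, 19 and 91 lay in the capillary cluster, which held only 4 and 16 NdpKO cells. A change in cell makeup and a change within cells cannot be told apart in this sum of Ackr1. The pooled ratio of NdpKO to NdpWT was 0.0341, with an exact interval for counting error of 0.00408 to 0.126 (edgeR adjusted p = 0.00188, beside 5.12% of 9487 genes called, 2.82% higher and 2.30% lower). Without 1 library at a time that adjusted p stayed at 0.0269 or below.

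Markers of other cells also varied among these sums. The summed level of 10 fibroblast markers in endothelial cells was 1931 and 1117 CPM in NdpKO and 654 and 1267 CPM in NdpWT libraries, and that of 11 mural markers 25.9 and 45.7 CPM in NdpKO and 74.9 and 109 CPM in NdpWT libraries, with every marker of both lists detected. Erythroid markers (7 of 7 detected) summed to 21871 and 15760 CPM in NdpKO and 9462 and 21209 CPM in NdpWT libraries. Without the endothelial clusters led by markers of another class, the change of Ackr1 was −1.89 (edgeR adjusted p = 0.00366). In non-arterial cells, mural markers summed to 23.4 and 39.2 CPM in NdpKO and 120 and 70.3 CPM in NdpWT libraries, and erythroid markers to 650 and 1381 CPM in NdpKO and 4338 and 5533 CPM in NdpWT libraries, so that both lists were lower in both NdpKO libraries. Their part in the calls of Ackr1 and Ephb4 in these cells was not tested.

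Most Ackr1 tags did not come from endothelium. Endothelial cells held 7.59% of its 3267 UMIs, the class of unnamed clusters, led mostly by neuronal and cell cycle genes, 49.1%, cycling cells 16.1% and the granule neuron lineage 13.7%. Over the 4 libraries its highest mean level among classes was in other neurons, an interneuron-like class, at 42.3 and 39.4 CPM in NdpKO and 18.9 and 16.7 CPM in NdpWT cells. The unnamed class, at 25.6 and 27.5 CPM in NdpKO and 26.0 and 19.6 CPM in NdpWT cells, was below other neurons in both NdpKO libraries and above them in both NdpWT libraries. Lower in the mean over libraries, and overlapping each other, were proliferating and non-arterial endothelial cells, oligodendrocyte-like cells (8.39 to 24.4 CPM), the granule neuron lineage (9.32 to 13.1 CPM) and cycling cells (8.45 to 11.2 CPM). Fibroblasts (0.330 to 0.584 CPM), the arachnoid barrier and macrophages were lowest among the larger classes. The gene lies against Cadm3, a cell adhesion gene of neurons on the same strand. Their annotations share 493 bases (chromosome 1, 173333258 to 173333750, GRCm38). These bases lie outside the last exon of Ackr1 (173331890 to 173332929), where 3′ tags of a full transcript fall. They are the 3′ end of the Cadm3 annotation (173333258 to 173367695, minus strand), the side where 3′ tags of Cadm3 fall.

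Cadm3 was high where neuronal Ackr1 was high and low in endothelium. It was at 132 and 143 CPM in NdpKO and 112 and 121 CPM in NdpWT other neurons, and at 2.27 and 4.52 CPM in NdpKO and 1.86 and 1.81 CPM in NdpWT endothelial cells. Per Cadm3 UMI there were 0.319 and 0.275 Ackr1 UMIs in NdpKO and 0.168 and 0.138 in NdpWT other neurons. Endothelial cells had 1.86 and 1 in NdpKO and 8 and 9.31 in NdpWT libraries. In every other class tested this ratio was 0.667 or below, also in non-neural ones such as fibroblasts (0.176 to 0.311). How the shared bases were counted was not tested. In other neurons Ackr1 changed by 1.15 ± 0.32 (edgeR adjusted p = 0.380) and in the granule neuron lineage by 0.38 ± 0.22 (adjusted p = 1.00), neither past the threshold. The difference between classes was itself tested, with the library as a block, as a comparison added after seeing the data. The NdpKO change in endothelial cells minus that in other neurons was −3.01 ± 0.45 (edgeR adjusted p = 1.25e-06, beside 1.21% of genes called), and minus that in the granule neuron lineage −2.27 ± 0.31 (edgeR adjusted p = 0.00818, beside 0.622% called). Against cycling cells it was −1.74 with an adjusted p of 0.0518 (0.556% called), against fibroblasts −1.97 with 0.0731 (3.75% called) and against erythroid cells −1.44 with 0.588 (0.0305% called). Of 43 such tests over the members, those against other neurons and the granule neuron lineage were the 2 called. For the other members none was, also against the arachnoid barrier, macrophages, monocytes or dendritic cells and mural cells, where 2.56%, 1.45%, 0.187% and 1.34% of all genes were called.

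**Figure D2:**
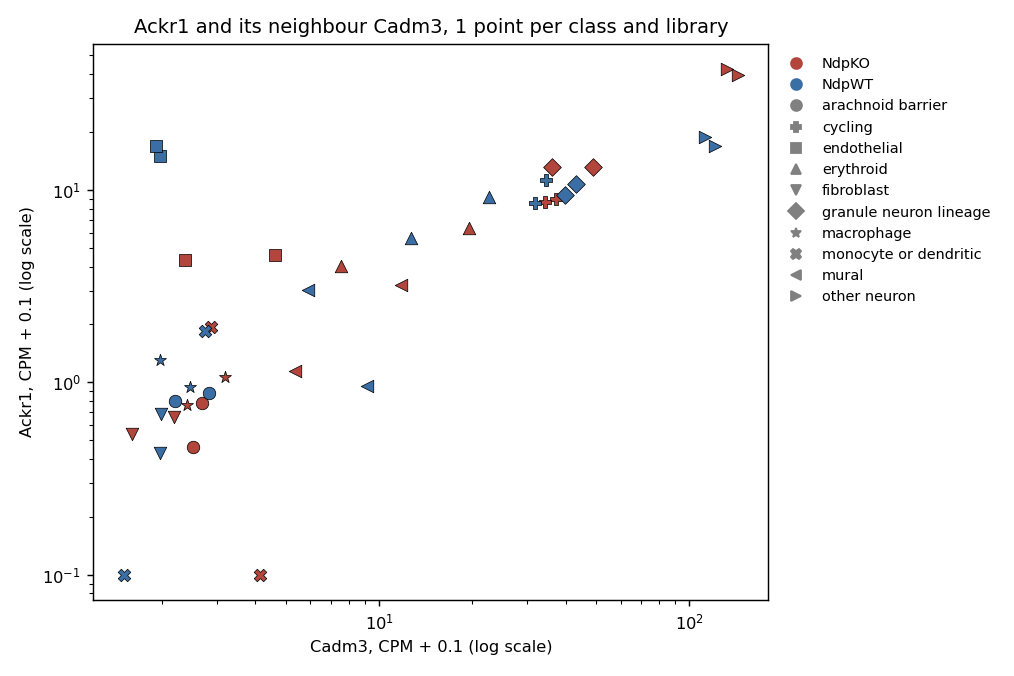
Ackr1 against its neighbour Cadm3 (CPM plus 0.1, both axes log scales), each point a cell class in a library, red NdpKO and blue NdpWT. Classes outside endothelium, neural or not, mostly lie along a rising band up to other neurons. The 4 endothelial points stand above it, the NdpKO ones at 4.21 and 4.52 CPM below the NdpWT ones at 14.9 and 16.8 CPM.

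Neither the fate regulator Nr2f2 nor the receptor Ephb4 was called in the endothelium as a whole, and of the 2 only Ephb4 was called in non-arterial cells. Nr2f2 (ENSMUSG00000030551, chromosome 7, 70351944 to 70366735, minus strand, GRCm38) was at 112 and 151 CPM in NdpKO and at 169 and 198 CPM in NdpWT endothelial cells. The groups did not overlap, and the change was −0.50 ± 0.16 (edgeR adjusted p = 0.178). With 1 library left out at a time it lay between −0.73 and −0.30. In non-arterial cells the groups overlapped, with 212 and 272 CPM in NdpKO and 252 and 302 CPM in NdpWT libraries (log2 change −0.18 ± 0.17, adjusted p = 0.731). Arterial cells had 10.1 and 21.5 CPM in NdpKO and 7.62 and 19.3 CPM in NdpWT libraries, and the venous cluster 412 and 432 CPM in NdpKO and 473 and 486 CPM in NdpWT libraries. The order from venous to arterial cells was thus the same in all 4 libraries. Nr2f2 was not confined to endothelium: mural cells (411 to 585 CPM) and fibroblasts (306 to 424 CPM, 59.4% of its 57444 UMIs) stood above the endothelium as a whole and overlapped the venous cluster.

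Ephb4 (ENSMUSG00000029710, chromosome 5, 137350109 to 137378669, plus strand, GRCm38) was at 95 and 101 CPM in NdpKO and at 62.2 and 56.6 CPM in NdpWT non-arterial cells. Both NdpKO libraries lay above both NdpWT libraries. The change was 0.75 ± 0.17, 1.68-fold, with an adjusted p of 0.0247 in edgeR and 0.120 in DESeq2. Without NdpWT replicate 1 the edgeR adjusted p was 0.0672 and without NdpWT replicate 2 it was 0.169. In all endothelial cells it was at 64.0 and 68.5 CPM in NdpKO and 57.5 and 47.8 CPM in NdpWT libraries, a change of 0.32 ± 0.15 (adjusted p = 0.427), and in arterial cells at 55.7 and 41.8 CPM in NdpKO and 49.5 and 45.4 CPM in NdpWT libraries (0.06 ± 0.23, adjusted p = 0.998). The non-arterial change minus the arterial one was 0.71 ± 0.24 (edgeR adjusted p = 0.163, beside 2.21% of genes called), so the difference between the subtypes did not pass the threshold. Venous cells had the highest level, 182 and 154 CPM in NdpKO and 145 and 66.4 CPM in NdpWT libraries. Outside the venous cluster Ephb4 was at 77.0 and 71.6 CPM in NdpKO and 56.8 and 55.4 CPM in NdpWT cells, and the change of 0.44 ± 0.19 was not called (edgeR adjusted p = 0.295). Venous cells were 16.9% and 39.1% of NdpKO and 8.59% and 12.3% of NdpWT non-arterial cells. For the non-arterial call of Ephb4, cell makeup and change within cells thus cannot be told apart. After the endothelium came fibroblasts (19.7 to 33.3 CPM) and the arachnoid barrier (21.1 to 32.4 CPM), which overlapped each other.

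**Figure D3:**
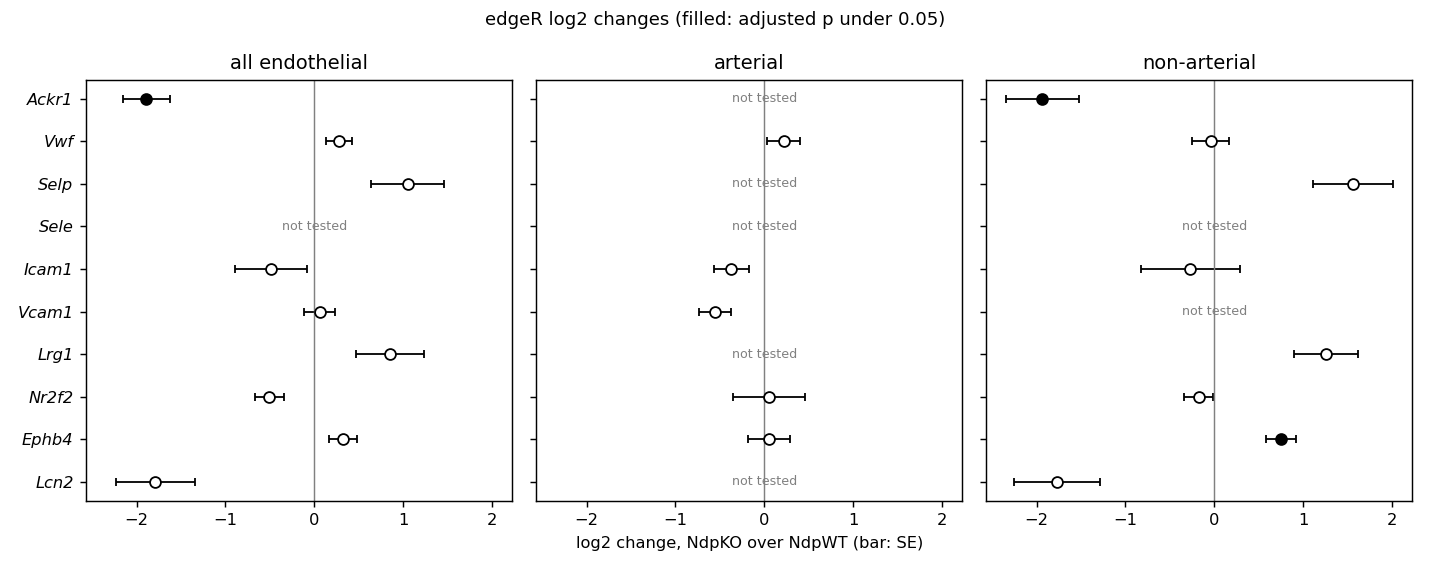
Log2 change (NdpKO over NdpWT) with its SE for each gene in all endothelial, arterial and non-arterial cells; filled points have an adjusted p under 0.05. Ackr1 is filled in all endothelial and non-arterial cells, at −1.89 and −1.94, and Ephb4 in non-arterial cells, at 0.75.

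Of the Weibel-Palade cargo, Vwf had the largest share of its UMIs in endothelium among the 10 genes, and it fell in NdpKO non-arterial cells once the venous cluster was left out. Vwf (ENSMUSG00000001930, chromosome 6, 125546774 to 125686679, plus strand, GRCm38) had 93.1% of its 10860 UMIs in endothelium and stood at 515 and 415 CPM in NdpKO and at 363 and 391 CPM in NdpWT endothelial cells. The change of 0.28 ± 0.15 was not called (edgeR adjusted p = 0.505). Levels were 1122 and 702 CPM in NdpKO and 744 and 822 CPM in NdpWT arterial cells, and 205 and 321 CPM in NdpKO and 233 and 313 CPM in NdpWT non-arterial cells, and the groups overlapped in both. The venous cluster held 1031 and 807 CPM in NdpKO and 1618 and 1229 CPM in NdpWT cells, lower in both NdpKO libraries, with no test for want of cells.

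Outside the venous cluster Vwf fell in NdpKO non-arterial cells, to 33.4 and 49.8 CPM against 143 and 204 CPM in NdpWT cells, in the comparison added after seeing the data. No interval of an NdpKO library, the highest ending at 63.3 CPM, reached that of an NdpWT library, the lowest starting at 126 CPM. The change was −2.04 ± 0.23 (edgeR adjusted p = 0.000113; DESeq2 adjusted p = 7.05e-09), and without 1 library at a time it lay between −2.33 and −1.78 and was called each time. These cells are mostly of the unnamed cluster in NdpKO and of the capillary cluster in NdpWT libraries. In the unnamed cluster Vwf was at 20.7 and 18.7 CPM in 70 and 107 NdpKO cells and at 327 and 172 CPM in only 7 and 21 NdpWT cells. In the capillary cluster it was at 167 and 180 CPM in only 4 and 16 NdpKO cells and at 138 and 205 CPM in 110 and 370 NdpWT cells. Venous cells, with the highest Vwf of these 3 clusters, were 16.9% and 39.1% of NdpKO and 8.59% and 12.3% of NdpWT non-arterial cells. A change in cell makeup and a change within cells cannot be told apart in this sum. The venous shares depended on the clustering, and the comparison outside the venous cluster was not repeated under another clustering.

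**Figure D4:**
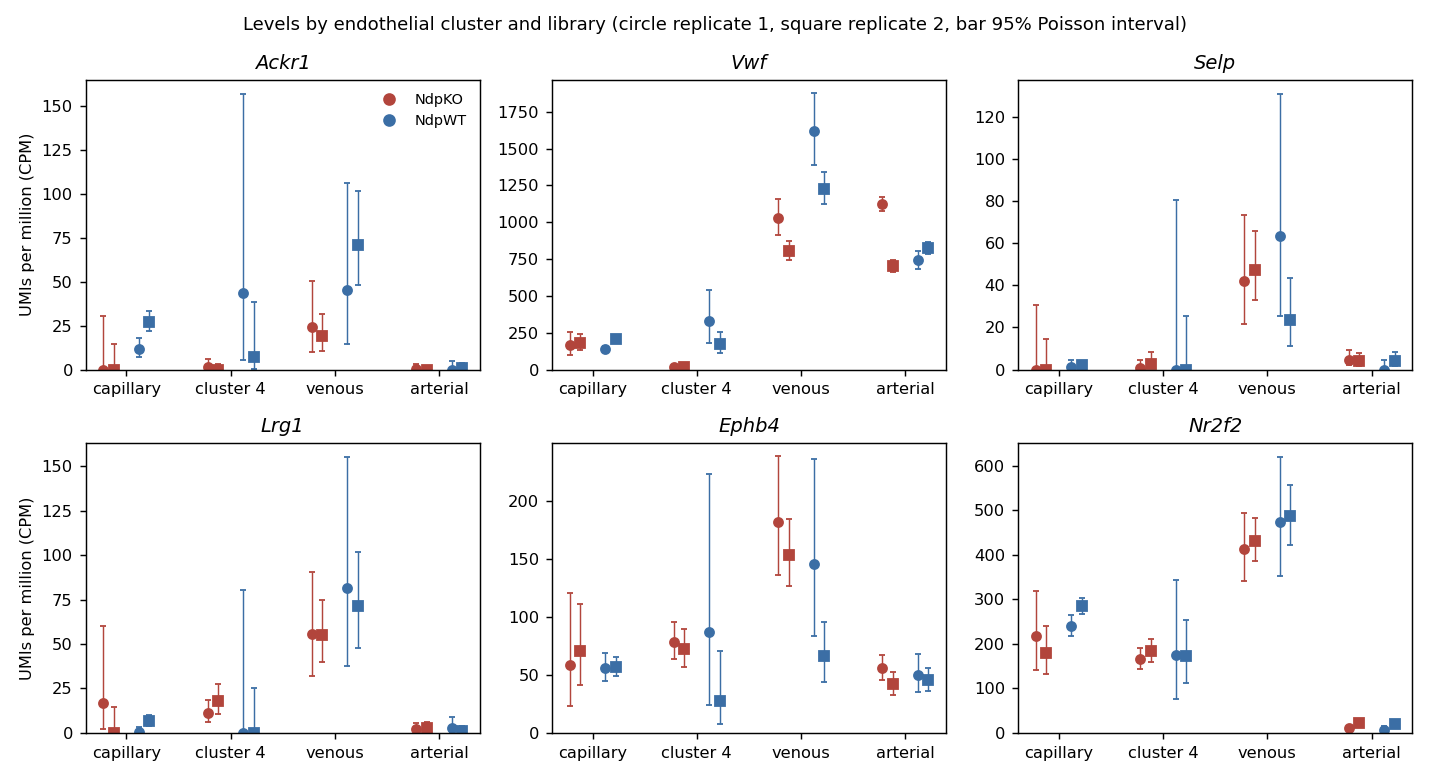
Levels (CPM, with 95% Poisson intervals) in the capillary, unnamed (cluster 4), venous and arterial clusters for 6 genes, NdpKO left of NdpWT in each pair. Nr2f2, Selp, Lrg1 and Ephb4 are highest in venous cells, and Vwf in the unnamed cluster is at 20.7 and 18.7 CPM in NdpKO and 327 and 172 CPM in NdpWT cells.

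Selp (ENSMUSG00000026580, chromosome 1, 164115264 to 164150026, plus strand, GRCm38), the rapidly displayed selectin, was scarce and nearly confined to endothelium, with 79.6% of its 152 UMIs there. It was at 4.70 and 9.40 CPM in NdpKO and at 3.42 and 3.28 CPM in NdpWT endothelial cells, from 29, 52, 11 and 29 UMIs. Both NdpKO libraries were higher, but the change of 1.05 ± 0.41 was not called (edgeR adjusted p = 0.298). In non-arterial cells it changed by 1.56 ± 0.45 (edgeR adjusted p = 0.0841), and by 0.81 to 2.00 with 1 library left out at a time. Levels there were 7.82 and 18.4 CPM in NdpKO and 5.00 and 4.32 CPM in NdpWT libraries. Most of these UMIs were venous, 12 and 35 in NdpKO and 7 and 10 in NdpWT libraries, where the levels of 41.9 and 47.2 CPM in NdpKO and 63.6 and 23.7 CPM in NdpWT cells overlapped. Sele (ENSMUSG00000026582, chromosome 1, 164048234 to 164057677, plus strand, GRCm38), the selectin made after cytokine exposure, was at the limit of detection. Endothelial cells had 2 and 7 UMIs in NdpKO libraries and 0 and 2 UMIs in NdpWT libraries, and the limit for 0 UMIs in NdpWT replicate 1 was 0.932 CPM. It was not tested in any class, and a difference was not detectable at this depth.

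The integrin ligands Icam1 and Vcam1 were well measured, and neither was called in endothelial cells. Icam1 (ENSMUSG00000037405, chromosome 9, 21015985 to 21028817, plus strand, GRCm38), which binds leukocyte integrins of the Itgb2 family, was at 73.0 and 141 CPM in NdpKO and at 116 and 176 CPM in NdpWT endothelial cells. The genotypes overlapped. The change was −0.48 ± 0.40 (edgeR adjusted p = 0.773), and it lay between −1.02 and −0.08 with 1 library left out at a time. Non-arterial cells had 97.4 and 218 CPM in NdpKO and 126 and 255 CPM in NdpWT libraries (−0.27 ± 0.55, adjusted p = 0.917), and arterial cells 62.1 and 80.9 CPM in NdpKO and 80.03 and 101 CPM in NdpWT libraries (−0.37 ± 0.20, adjusted p = 0.998). The non-arterial change lay between −0.95 and 0.34 with 1 library left out at a time. Monocytes or dendritic cells (81.1 to 127 CPM) overlapped the endothelium (73.0 to 176 CPM) in level, and fibroblasts held 29.2% of the UMIs against 30.2% in endothelium. The last exon overlaps an antisense gene, Gm47079, with 2 to 8 UMIs per library in endothelial cells.

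Vcam1 (ENSMUSG00000027962, chromosome 3, 116109949 to 116129688, minus strand, GRCm38), the ligand of Itga4 integrins, was an arterial gene within this endothelium. It was at 259 and 388 CPM in NdpKO and at 421 and 522 CPM in NdpWT arterial cells, and at 4.81 and 4.84 CPM in NdpKO and 1.11 and 8.12 CPM in NdpWT non-arterial cells. Both NdpKO libraries lay below both NdpWT libraries in arterial cells, by −0.55 ± 0.18, which was not called (edgeR adjusted p = 0.629, unadjusted p = 0.00478). In all endothelial cells the groups overlapped, with 123 and 180 CPM in NdpKO and 137 and 148 CPM in NdpWT libraries (0.06 ± 0.17, adjusted p = 0.946). Fibroblasts carried 75.8% of its UMIs, at 177 to 251 CPM, below arterial cells (259 to 522 CPM) and overlapping the endothelium as a whole (123 to 180 CPM).

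Of the secreted proteins, Lrg1 was higher and Lcn2 lower in both NdpKO libraries, and neither was called. Lrg1 (ENSMUSG00000037095, chromosome 17, 56119678 to 56122001, minus strand, GRCm38) was at 7.94 and 15.0 CPM in NdpKO and at 4.04 and 7.58 CPM in NdpWT endothelial cells, a change of 0.86 ± 0.38 (edgeR adjusted p = 0.401). In non-arterial cells it was at 19.2 and 29.0 CPM in NdpKO and 5.55 and 13.2 CPM in NdpWT libraries, and the groups did not overlap (1.26 ± 0.36, adjusted p = 0.0812). That change lay between 0.90 and 2.13 with 1 library left out at a time. Venous cells had the highest endothelial level, 55.9 and 55.3 CPM in NdpKO and 81.8 and 71.2 CPM in NdpWT libraries, lower in both NdpKO libraries. In the unnamed cluster there were 14 and 19 UMIs in NdpKO and 0 and 0 UMIs in the few NdpWT cells. Neutrophils stood above the endothelium, at 110 to 301 CPM, and held 21.1% of the 370 UMIs of Lrg1 against 57.3% in endothelium.

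Lcn2 (ENSMUSG00000026822, chromosome 2, 32384633 to 32388252, minus strand, GRCm38) was a neutrophil gene here, with 95% of its 2898 UMIs in 57 neutrophils at 1303 to 7256 CPM. In endothelial cells it was at 1.30 and 1.99 CPM in NdpKO and at 6.52 and 4.97 CPM in NdpWT libraries, from 8, 11, 21 and 44 UMIs. Both NdpKO libraries were lower. The change of −1.79 ± 0.45 was not called (edgeR adjusted p = 0.0730), and it lay between −2.11 and −1.51 with 1 library left out at a time. Of its 84 endothelial UMIs, 58 lay in non-arterial and 22 in proliferating cells. In non-arterial cells it was at 2.40 and 2.42 CPM in NdpKO and 7.78 and 8.89 CPM in NdpWT libraries (−1.77 ± 0.48, adjusted p = 0.0654), and arterial cells had 0 in every library. Fibroblasts of the same libraries had 0.0366 to 0.275 CPM. The summed level of 9 neutrophil markers in endothelial cells, 8 of them detected, was 5.67 and 3.61 CPM in NdpKO and 2.80 and 3.84 CPM in NdpWT libraries. The part of neutrophil RNA in the endothelial Lcn2 level was not tested.

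**Figure D5:**
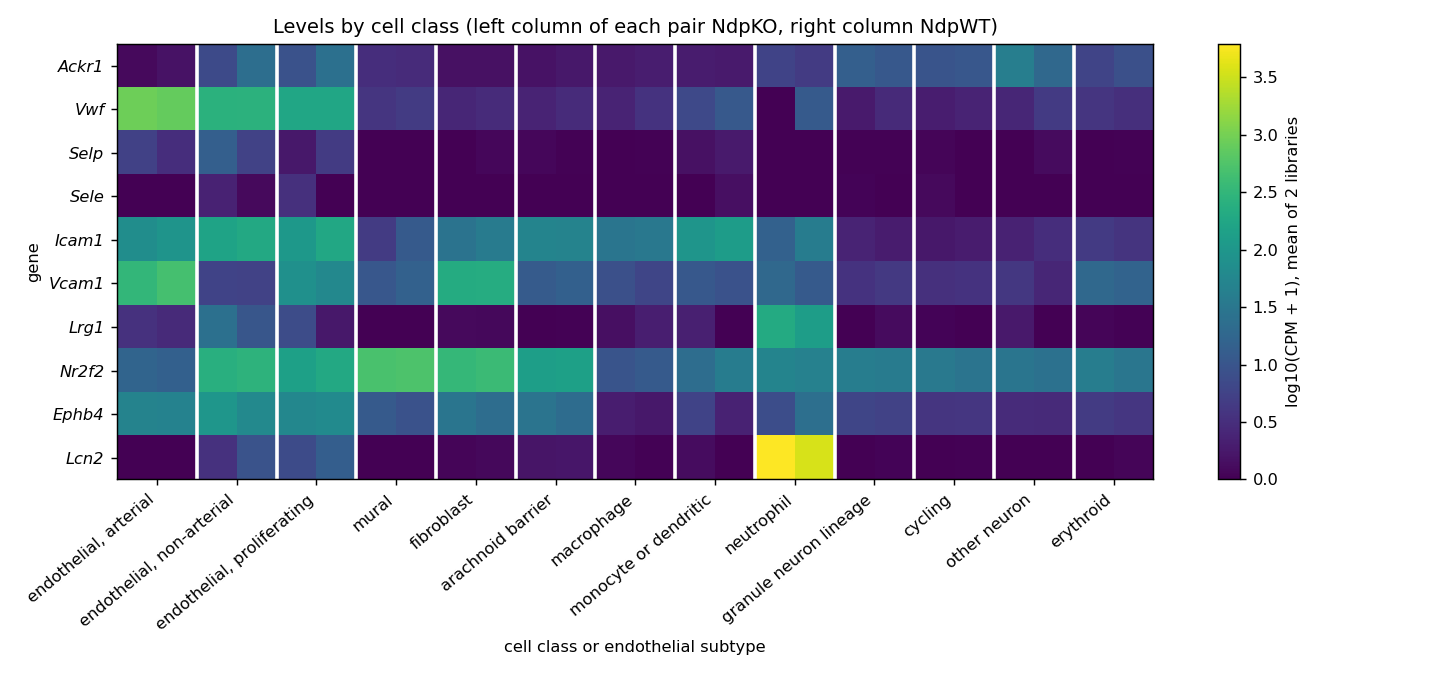
Mean level of each gene over the 2 libraries of a genotype, as log10(CPM + 1), in endothelial subtypes and other classes, with NdpKO left of NdpWT in each pair of columns. Vwf is brightest in endothelial subtypes, Nr2f2 in mural cells, Vcam1 in arterial cells and fibroblasts, and Lcn2 in neutrophils.

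Outside the endothelium 9 classes could be tested, and no member was called in any of them. EdgeR called 14 genes there in all: 0.0326% of those tested in fibroblasts, 0.0224% in the granule neuron lineage, 0.0080% in macrophages, 0.0370% in mural cells, 0.0107% in other neurons and 0 in the other 4 classes, where 319 to 549 genes had an unadjusted p below 0.05 and DESeq2 called 2 to 12. DESeq2 called 142 genes in fibroblasts, 20 in macrophages, 13 in mural cells, 6 in the granule neuron lineage and 0 in other neurons. Between 2 and 6 members were tested in each class. The lowest unadjusted p values there were 0.00119 for Ackr1 in other neurons (described above) and 0.0109 for Icam1 in mural cells, with a change of −1.44 ± 0.49 (edgeR adjusted p = 0.533). Ephb4 changed by 0.39 ± 0.19 in fibroblasts (adjusted p = 0.554) and by 0.40 ± 0.19 in the arachnoid barrier (adjusted p = 0.998), neither called.

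Other genes of these pathways moved in small numbers. Over all 12657 genes tested in endothelial cells, 0.869% were called higher and 1.35% lower, with a median change of −0.003. Among 14 other venous genes tested there, 1 rose and 1 fell, with a median change of −0.14. Slc38a5, an amino acid transporter of brain venous and capillary endothelium, fell to 123 and 162 CPM in NdpKO, against 465 and 467 CPM in NdpWT cells (−1.73 ± 0.16, edgeR adjusted p = 0.000220). It was among the markers used to name the venous cluster. Of 21 other genes of leukocyte adhesion and passage, 2 rose and 0 fell (median 0.31). Aoc3, an amine oxidase that also serves as an adhesion molecule, rose to 32.1 and 25.8 CPM in NdpKO, against 6.52 and 9.50 CPM in NdpWT cells (1.77 ± 0.23, adjusted p = 0.00182). Jam3, a junctional adhesion molecule, rose to 23.3 and 24.4 CPM in NdpKO, against 11.49 and 12.7 CPM in NdpWT cells (0.95 ± 0.20, adjusted p = 0.0295).

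None of 26 genes of the NF-kB and cytokine response was called (median 0.22), and none of 18 partners of Ephb4 and Nr2f2 (median 0.27). Of 13 further Weibel-Palade genes, 1 rose and 0 fell (median 0.22): Timp3, an inhibitor of metalloproteinases, rose to 260 and 284 CPM in NdpKO, against 151 and 182 CPM in NdpWT cells (0.68 ± 0.14, edgeR adjusted p = 0.0266). Of 9 leukocyte counter-receptors, 0 rose and 1 fell (median 0.23): Itga4, the integrin chain that binds Vcam1, was at 51.5 and 60.7 CPM in NdpKO and 126 and 110 CPM in NdpWT endothelial cells (−1.09 ± 0.15, adjusted p = 0.00229). In non-arterial cells 5 of 20 adhesion genes rose and 0 fell (median 0.48, against 0.0005 over all genes, of which 2.62% were called higher and 2.22% lower). For the NF-kB and cytokine list 4 of 25 rose and 1 fell (median 0.15), and for the Ephb4 and Nr2f2 partners 4 of 14 rose and 0 fell (median 0.34). Of 14 other venous genes 1 rose and 2 fell there (median −0.007). Of 11 further Weibel-Palade genes 2 rose and 1 fell (median −0.10), and of 7 leukocyte counter-receptors 0 rose and 1 fell (median 0.01). In these non-arterial sums, cell makeup and change within cells cannot be told apart, since the clusters differed between genotypes. In arterial cells 0 genes of any of the 6 lists were called. A gene can stand in more than 1 list, and the lists were compared with all genes by these counts and medians, without a test.

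The genes whose levels followed each member most closely were found over 40 sums (10 classes in 4 libraries) and 11509 genes, by Pearson's r of log2(CPM + 1); the sums of a library share its depth and genes of 1 cell type rise together. For Vwf they were Sox17, Adgrl4 and Nos3 (r = 0.961 to 0.952), and for Selp Sox17, Ly6a and Clec14a (0.937 to 0.930). For Lrg1 they were Ly6c1, Myct1 and Bcl6b (0.903 to 0.887), and for Lcn2 Prnd, Ly75 and Tnfsf10 (0.897 to 0.876). Icam1 was most like Ctsh, Def6 and S100a13 (0.962 to 0.940), Vcam1 like Foxl2, Gpr182 and Ldb2 (0.909 to 0.908), Nr2f2 like Phldb2, Serpinh1 and Fstl1 (0.958 to 0.930), and Ephb4 like Reck, Hspa12b and Tmem100 (0.928 to 0.914). Ackr1 was most like Tmem178, Frmd5 and Epb41l4a (0.948 to 0.932).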

How the data were processed

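The authors deposited raw UMI counts for each barcode and gene, without normalization; the submitters' processing notes name Cell Ranger 6.1.2 and mm10. Cells with at least 500 genes, 1000 UMIs and at most 10% mitochondrial UMIs were kept. Scrublet calls, 97 to 257 per library or 1.70% to 2.59% of the cells passing this filter, were removed. The rate expected from the number of deposited barcodes, at 0.8% per 1000, was 10.3% to 15.3%, so doublets remain. Free RNA was not corrected. Cells were clustered in scanpy 1.11.5 on 2000 variable genes without the members (30 components, 20 neighbours from scikit-learn 1.9.0, Leiden at resolution 1 with leidenalg 0.10.2 and igraph 0.11.9), and endothelial cells again (20 components, resolution 0.5). Clusters were named here, not by the authors: a name needed at least 3 of its markers among the 50 leading genes, and the 10 leading genes could not favour another type. Counts were summed per library and class, since cells are not replicates, where each library had at least 50 cells of the class. They were tested with edgeR 4.0.16 in R 4.3.3 (quasi-likelihood, robust, TMM, minimum count 10, no pairing of replicate numbers, which the labels do not say mark the litter match), with DESeq2 1.42.0 as an alternative. All scripts were tested on simulated data. P-values measure the spread between these libraries, each a separate pool of animals. No library was a duplicate of another (chi-square of their counts over its degrees of freedom, 9.34 to 21.5). Positions come from the GRCm38 annotation and promoters from RefSeq.

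The members and the gene lists were chosen with earlier results of these data known. Named were all members, every list gene called in the endothelial class except 1 that is not reported here, and for each member with at least 100 UMIs the 3 genes of highest Pearson correlation among those with a mean of at least 5 CPM. Differences between classes were tested where both classes had at least 40 UMIs of a member. Other normalizations, filters, clusterings, each library left out and a replicate block were tried.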

Additional observations from a re-analysis of the deposited data

Results flagged for a closer look

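The NdpKO change of Ackr1 in endothelial cells differed from that in 2 neuronal classes by a test of the difference itself. Against other neurons the difference was −3.01 ± 0.45 on the log2 scale (edgeR adjusted p = 1.25e-06), from levels of 4.21 and 4.52 CPM in NdpKO and 14.9 and 16.8 CPM in NdpWT endothelial cells beside 42.3 and 39.4 CPM in NdpKO and 18.9 and 16.7 CPM in NdpWT neurons. Without 1 library at a time it lay between −3.19 and −2.86 and was called each time. Against the granule neuron lineage it was −2.27 ± 0.31 (edgeR adjusted p = 0.00818), from 13.1 and 13.1 CPM in NdpKO and 10.7 and 9.32 CPM in NdpWT lineage cells. Without NdpKO replicate 2 the adjusted p was 0.0950, and without each other library it was 0.0303 or below. The annotations of Ackr1 and Cadm3 overlap, and the part of Cadm3 in the result was not tested.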

How the results depend on the processing

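Of 301 values of single members under the alternatives, 264 kept direction and side of the threshold. In endothelial cells Ackr1 was called under all 13 alternatives (log2 change −1.96 to −1.80). Genes called in endothelial cells, 281 as reported, numbered 733 with no low-count filter, 616 with the replicate block and 118 to 611 with 1 library left out; called members, 1 as reported, numbered 3, 4 and 1 to 4. Non-arterial genes, 486 as reported, numbered 289 by DESeq2, 761 with no filter, 752 with the block and 272 to 728 with 1 library left out; called members, 2 as reported, numbered 1, 5, 5 and 1 to 4. Arterial genes, 10 as reported, numbered 3 by DESeq2, 30 with no filter, 17 with members kept among the variable genes, 18 with genes centred within each library, 39 with the block and 7 to 45 with 1 library left out, with 0 members throughout. Over the 9 other classes 14 genes became 1973 with the block and 95 to 583 with 1 library left out, and 0 called members became 2 with the block and 0 to 1 with 1 library left out. The block added Icam1, Nr2f2 and Lcn2 (lower) in endothelial cells with edgeR adjusted p of 0.0286, 0.0214 and 0.0330. In non-arterial cells it added Selp and Lrg1 (higher) and Lcn2 (lower) with 0.0221, 0.00643 and 0.0416, and in fibroblasts Ephb4 and Icam1, where called genes went to 1261 against 5 without it. Without the low-count filter Nr2f2 and Lcn2 were added in endothelial and Selp, Lrg1 and Lcn2 in non-arterial cells. The labels do not say that a replicate number marks the litter match, so the numbers were not taken as a pairing: with 2 pairs, deviations of same-numbered libraries correlated at 0.0755 in endothelial, 0.138 in arterial, 0.174 in non-arterial, 0.0993 in mural, 0.213 in macrophage and 0.306 in fibroblast sums.

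Directions reversed as follows. Endothelial Vcam1 ranged from −0.22 to 0.31 with 1 library left out, arterial Vwf from −0.17 to 0.52, arterial Ephb4 from −0.18 to 0.26, non-arterial Vwf from −0.38 to 0.22, non-arterial Icam1 from −0.95 to 0.34, and arterial Nr2f2 from −0.57 to 1.02. Arterial Nr2f2 was also −0.016 with the stricter cell filter and −0.062 with genes centred, and non-arterial Vwf 0.018 with the stricter filter. Thinned to 1000 in place of 3000 UMIs, the ratio of shares (NdpKO over NdpWT) was 1.01 in place of 0.918 for Vwf, 5.27 in place of 1.55 for Selp, 0.904 in place of 1.17 for Vcam1 and 0.825 in place of 0.208 for Lcn2. At resolution 1 the arterial cells gave no value, with 45 cells in 1 library. The cause of these shifts was not tested, and few UMIs limit Selp, Sele, Lrg1 and Lcn2.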

Other observations

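In non-arterial endothelial cells several other genes of the lists were called as well. These cells came from different clusters in the 2 genotypes, so changes in cell makeup and within cells cannot be told apart. Aoc3 was at 30.1 and 27.6 CPM in NdpKO and 1.67 and 3.05 CPM in NdpWT cells (log2 change 3.47 ± 0.36, edgeR adjusted p = 0.000306). Mcam, an adhesion molecule of endothelial junctions, was at 115 and 61.9 CPM in NdpKO and 30.0 and 24.1 CPM in NdpWT cells (1.74 ± 0.30, adjusted p = 0.0107). Efnb2, the arterial ligand of Ephb4, was at 84.2 and 88.5 CPM in NdpKO and 25.0 and 31.2 CPM in NdpWT cells (1.61 ± 0.19, adjusted p = 0.000578). Emcn, a sialomucin of venous and capillary endothelium, was at 743 and 799 CPM in NdpKO and 304 and 369 CPM in NdpWT cells (1.21 ± 0.16, adjusted p = 0.00105). Csf1, a growth factor of macrophages, was at 29.5 and 19.8 CPM in NdpKO and 55.0 and 58.7 CPM in NdpWT cells (−1.21 ± 0.23, adjusted p = 0.0111). Ctsc, a lysosomal protease, was at 34.3 and 40.6 CPM in NdpKO and 85.5 and 92.2 CPM in NdpWT cells (−1.23 ± 0.18, adjusted p = 0.00275). These 6 genes were chosen after their values were seen, and Emcn was among the markers used to name the venous cluster.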
